A study of Mus musculus with 4 samples.

Results

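The acid lipase cluster of mouse chromosome 19 was placed in the lists of lamina-associated domains (LADs) of WT and *Tm7sf2*-KO hepatocytes. Its 7 members, *Lipo1*, *Lipf*, *Lipk*, *Lipn*, *Lipm*, *Ch25h* and *Lipa*, were taken by their symbols in the mm9 annotation. No filter on a measured value was used, but the members were chosen with earlier results of these data known. They are 7 of 22367 annotated protein-coding genes and 7 of the 724 on chromosome 19, and all 7 symbols were found. They lie within 1009.7 kb, chr19:33592230-34601964 (NCBIM37, the same assembly as mm9), called the locus here.

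DamID was applied to primary hepatocytes of WT mice and of mice lacking Tm7sf2 (NET47), a sterol reductase of the nuclear envelope (NE) and endoplasmic reticulum. Hepatocytes of mice on a C57BL/6 background, aged 12 to 16 weeks, were incubated for 24 h with a lentivirus for LaminB1-Dam or for Dam alone, and harvested 60 h after transduction. There were 4 groups of 1 library each, WT LaminB1-Dam, WT Dam control, KO LaminB1-Dam and KO Dam control, and each library held DNA pooled from 4 mice. With no replicate library, no difference between the genotypes has an error or a test, and every value is a description of the deposited lists. Dam was delivered to cultured cells, of which only a part was transduced, and the deletion was present in the whole animal. The lists hold positions without read numbers, so the depth behind a border is unknown from them. The study states a lower depth for the KO. The whole KO list has 16076 LADs against 8107 in WT, which is a finer segmentation. The part of depth and of this segmentation in the results was not tested. The lists hold no expression value, so neither the hepatocyte label nor the loss of *Tm7sf2* could be checked against them.

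The acid lipases are a family of serine hydrolases that work at acid pH. *Lipa* encodes lysosomal acid lipase, which hydrolyzes the cholesteryl esters and triglycerides that hepatocytes and macrophages take up with lipoproteins. *Lipf* encodes gastric lipase, secreted in the stomach to digest dietary fat. *Lipk*, *Lipm* and *Lipn* are known from the keratinocytes of the outer epidermis, where lipids are remodeled for the skin barrier. *Ch25h*, which is no lipase, is an intronless gene for the enzyme that makes 25-hydroxycholesterol, an oxysterol that restrains sterol synthesis and is induced by interferon. LADs are the stretches of the genome in frequent contact with the lamina under the inner nuclear membrane, and genes that a tissue does not use are often found in them.

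The members were compared by sequence before their positions were read. The 6 lipases encode proteins of 395 to 422 residues, and *Ch25h* one of 298. Over the 15 pairs of lipases, identity of the aligned residues ranged from 44.4% for *Lipo1* and *Lipa* to 60% for *Lipf* and *Lipk*. Each of the 6 lipases has exons of 199, 110, 137 and 72 bases. The motif Gly-X-Ser-X-Gly, whose serine is the nucleophile of many lipases, occurred at 2 places in each protein. The second of these places is shown because it lets the shared exon plan be followed from gene to gene. It lies in exon 5 of each lipase, and in exon 6 of *Lipo1*, whose transcript has 11 exons instead of 10. The coding strand is given 5′ to 3′ from the spliced coding sequence of NCBIM37, with the 15 bases of the motif in capitals and their position and strand beside the name.
Lipo1, chr19:33654965-33654979, minus strand: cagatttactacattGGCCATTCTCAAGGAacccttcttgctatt
Lipf, chr19:34041387-34041401, plus strand: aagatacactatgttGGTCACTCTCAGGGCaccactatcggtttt
Lipk, chr19:34096982-34096996, plus strand: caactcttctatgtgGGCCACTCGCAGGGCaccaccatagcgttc
Lipn, chr19:34148092-34148106, plus strand: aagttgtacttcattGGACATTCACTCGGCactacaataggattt
Lipm, chr19:34187460-34187474, plus strand: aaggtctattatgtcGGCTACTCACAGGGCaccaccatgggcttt
Lipa, chr19:34583489-34583503, minus strand: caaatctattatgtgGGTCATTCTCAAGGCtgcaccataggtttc
These 15 bases were in LADs of both genotypes in *Lipo1*, *Lipf*, *Lipk* and *Lipm*, and in no LAD of either genotype in *Lipn* and *Lipa*. No member had this exon in a LAD of WT only.

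DamID reads the genome at GATC, the sequence that Dam methylates and *DpnI* cuts, so borders can be placed only at such sites. All 28 LAD borders inside the locus carried a GATC at the border, and 13 of the 28 lay inside a member. The borders that divide *Lipk*, *Lipn* and *Lipm*, with the KO border before *Lipk*, the WT border before *Lipn* and the WT border nearest to *Ch25h*, are shown. The first 5 of these 6 places set which exons of the epidermal lipase genes were in a LAD, and the last sets the distance of *Ch25h* and *Lipa* to a LAD in WT. Each window holds 60 bases of the plus strand of NCBIM37 centered on the border, and GATC is in capitals.
End of the KO LAD before Lipk, chr19:34075424-34075483: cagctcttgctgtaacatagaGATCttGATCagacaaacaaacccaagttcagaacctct
Start of the KO LAD in intron 2 of Lipk, chr19:34093428-34093487: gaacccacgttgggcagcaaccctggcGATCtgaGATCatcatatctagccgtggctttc
End of the long WT LAD before Lipn, chr19:34137890-34137949: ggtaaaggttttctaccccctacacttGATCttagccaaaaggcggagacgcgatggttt
Start of the WT LAD in intron 6 of Lipn, chr19:34152876-34152935: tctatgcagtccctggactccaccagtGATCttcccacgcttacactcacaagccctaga
Start of the KO LAD in intron 2 of Lipm, chr19:34183075-34183134: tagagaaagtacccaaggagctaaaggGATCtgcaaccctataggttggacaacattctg
End of the WT LAD before Ch25h, chr19:34536508-34536567: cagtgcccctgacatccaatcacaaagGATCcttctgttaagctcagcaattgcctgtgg
The members themselves held between 5 GATC sites in *Ch25h* and 752 in *Lipo1*, or 1.71 per kb in *Lipn*, 2.12 in *Lipm*, 2.42 in *Lipa*, 2.46 in *Lipk*, 2.62 in *Lipf*, 3.08 in *Lipo1* and 3.7 in *Ch25h*. *Lipn* was thus the member read most sparsely, with 30 sites over its 17.6 kb.

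LADs covered 726 kb of the locus in WT and 414 kb in KO, or 71.9% and 41% of its bases. The locus was overlapped by 4 WT LADs and by 11 KO LADs. Measured at full length, past the edges of the locus, they had means of 210 kb in WT, where 1 LAD of 662 kb weighs most, and 39.9 kb in KO. By state, 39.3% of the bases of the locus were shared by LADs of both genotypes, 32.6% were LAD in WT alone, 1.74% were LAD in KO alone and 26.4% were in no LAD. Of its WT LAD bases, 45.4% were outside every KO LAD. The same share was 61.3% over the rest of chromosome 19 and 7.77% to 19.8% on the other 18 autosomes. The value of the locus lay above that of each other autosome and below that of the rest of its own chromosome. These units are unlike, since the locus holds 726 kb of WT LADs and the others are whole or nearly whole chromosomes. Windows of the size of the locus were not compared. Differential regions (DRs) are the stretches of at least 10 kb that are in a LAD of 1 genotype only, and the locus held 7 PI DRs (LAD in WT only, from peripheral to interior) and 1 IP DR (LAD in KO only).

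**Figure D1:**
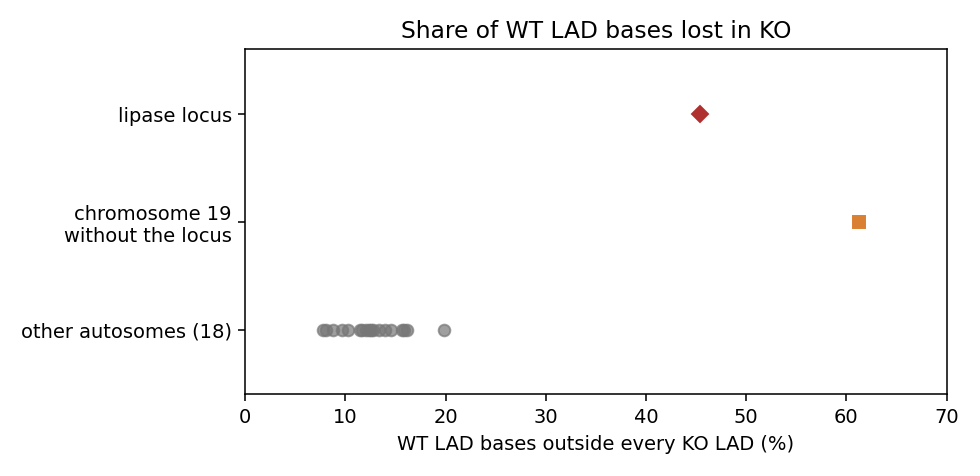
Share of WT LAD bases that lay outside every KO LAD, in percent. The diamond is the lipase locus at 45.4%, the square is chromosome 19 without it at 61.3%, and each of the 18 circles is another autosome, from 7.77% to 19.8%. Each point is 1 value from 1 pair of lists, so no error can be drawn.

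The locus fell into 2 unlike stretches at the end of its long WT LAD, which is the third longest of the 242 WT LADs of chromosome 19 (chr19:33475865-34137919, 662 kb). The first 546 kb of the locus, with *Lipo1*, *Lipf* and *Lipk*, lay wholly in that LAD, and 70% of these bases were also in KO LADs. The remaining 464 kb, with *Lipn*, *Lipm*, *Ch25h* and *Lipa*, was covered to 38.8% in WT and to 6.9% in KO. The share of WT LAD bases outside KO LADs was 30% in the first stretch and 92% in the other. Because the split was placed at a WT border, full WT coverage of the first stretch followed from it. The longest WT LAD of the other stretch, of 116 kb, holds no protein-coding gene and had no KO LAD over it, so it weighs heavily in the 92%. Over its full length the long WT LAD held 10 KO LADs of 14 to 119 kb, which together covered 67.7% of it. Between and around them were 11 gaps of 3.18 to 53.2 kb, of which 6 are DRs and 5 are under the 10 kb minimum.

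**Figure D2:**
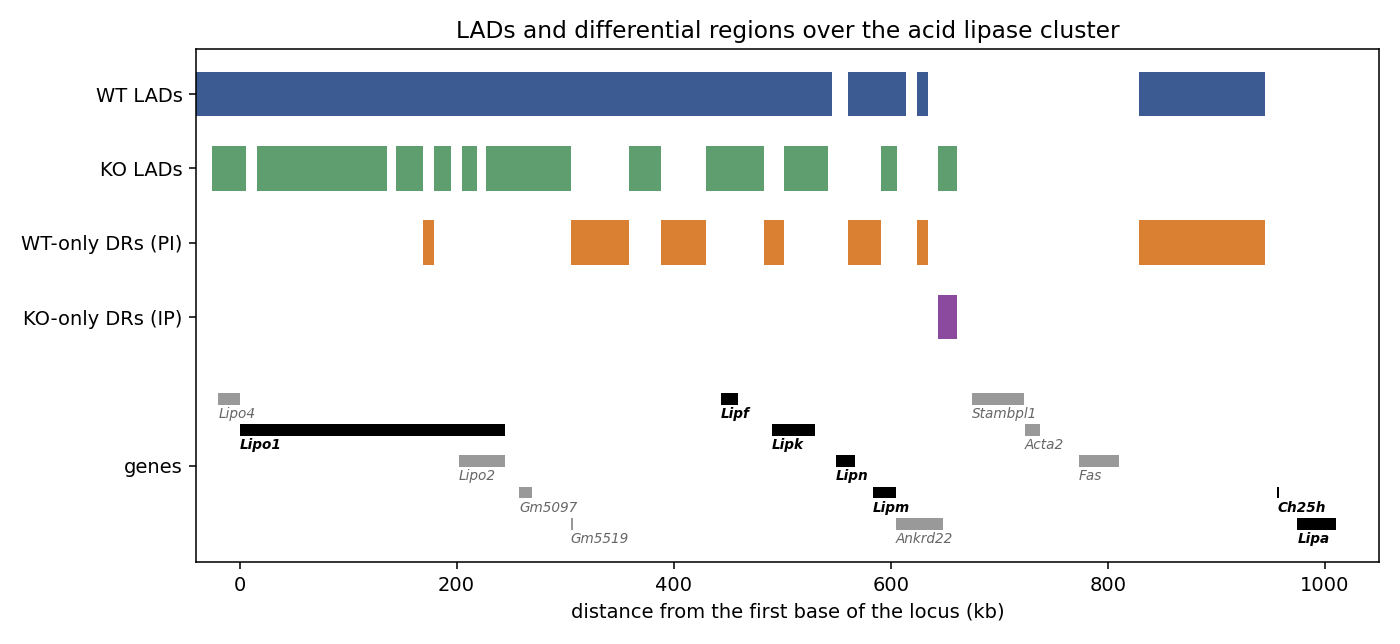
Map of the locus, with distance from its first base in kb on the horizontal axis. The upper rows show WT LADs, KO LADs, PI DRs and IP DRs, and the lower rows show gene spans, members in black and other protein-coding genes in gray. The long WT LAD, which runs past the left edge, holds *Lipo1*, *Lipf* and *Lipk* and is broken into separate LADs in KO, and the WT LAD of 116 kb to the left of *Ch25h* has no KO LAD over it.

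Base composition and GATC density were set beside these states. GC content was 38.6% in the bases that were in LADs of WT only and 38.4% in those in LADs of both genotypes, against 41.8% in those in neither. GATC density was 2.52 per kb in the WT-only bases, 3.02 in the shared bases and 2.4 in the bases in neither, and 2.46 over all of chromosome 19. The shared bases thus carried the densest sites, and the part of site density in the calls was not tested. The spans of 1 transcript per gene, chosen for the most exonic sequence, covered 17.4% of the WT-only bases, 34.6% of the shared bases and 62.1% of the bases in neither. By the full gene records, in which *Lipo1* is far longer, the shares were 28.5%, 67.4% and 62.1%, so which state was the most covered by genes depended on the gene model.

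Each member was classed after the study's scheme by an overlap of at least 1 base between its span and a DR. A gene on a PI DR is PI, a gene on an IP DR is IP, and a gene on both is ambiguous (AMB). Of the others, a gene overlapping a LAD in both genotypes is PP and any other gene is II. *Lipo1*, *Lipk*, *Lipn* and *Lipm* were PI, *Lipf* was PP, and *Ch25h* and *Lipa* were II. The 4 PI members of 7 stand beside 14.9% of the chromosome 19 genes and 5.43% of all genes. A gene can be PI only if a WT LAD touches it, which was so for all members but *Ch25h* and *Lipa*. On chromosome 19, where most genes were II, 108 genes were PI and 41 were PP. The single PP member stands beside 5.66% on chromosome 19 and 17.9% of all genes, and the 2 II members beside 73.1% and 56.6%. None of the 7 was IP, a class that held 4.7% of the chromosome 19 genes and 17.1% of all genes. The members are neighbors on shared LADs and DRs, *Lipn* and *Lipm* on the same DR, so these are not 7 independent observations.

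**Figure D3:**
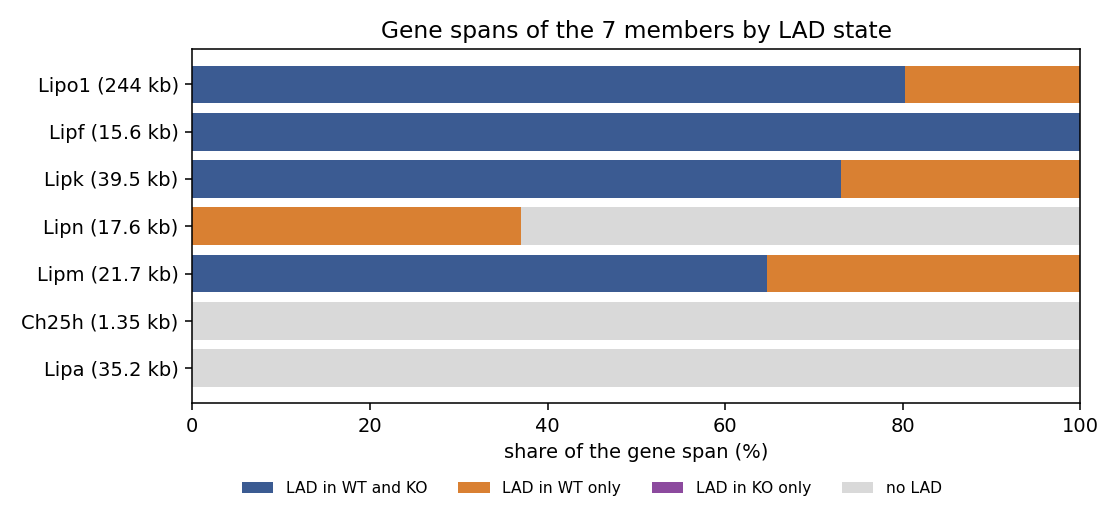
Share of each member's gene span, in percent, that lay in LADs of both genotypes (blue), of WT only (orange) or of neither (gray). No member had any span in a LAD of KO only, so the purple of the key does not occur. *Lipf* was wholly blue, *Lipo1*, *Lipk* and *Lipm* were blue for 80.3%, 73% and 64.7%, *Lipn* was orange for 37%, and *Ch25h* and *Lipa* were wholly gray.

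The exons were placed one at a time, using for each gene the coding transcript whose exons add up to the most bases. Of the 62 exons of the members, 37 were shared by LADs of both genotypes, 8 were LAD in WT alone, 0 were LAD in KO alone and 17 were in no LAD. The 8 WT-only exons belonged to *Lipk* (exons 1 and 2), *Lipm* (exons 1 and 2) and *Lipn* (exons 7 to 10). In *Lipk* and *Lipm* the WT-only part was therefore the 5′ end and in *Lipn* the 3′ end.

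**Figure D4:**
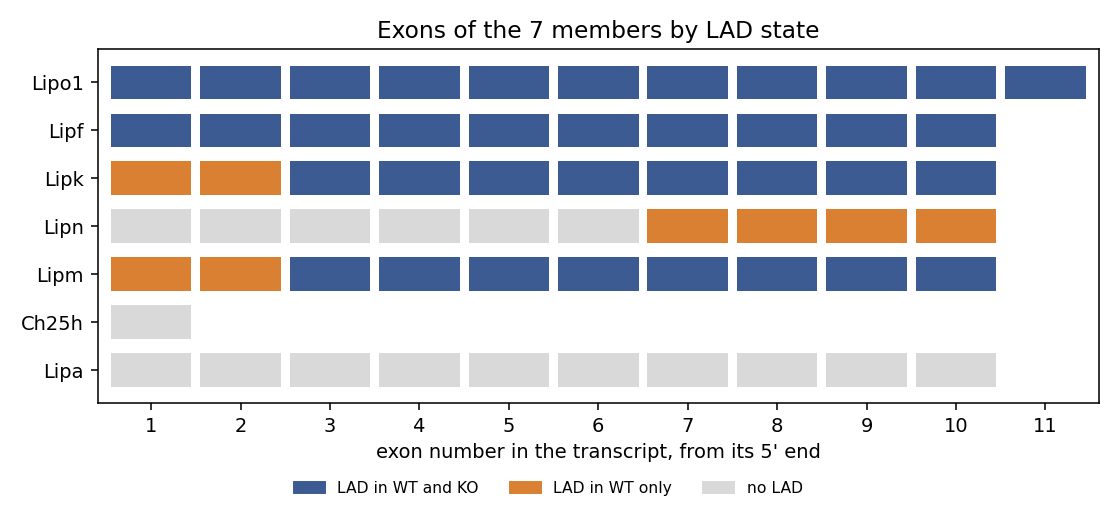
Exons of each member by number from the 5′ end of the transcript, colored by LAD state. Exons 1 and 2 of *Lipk* and *Lipm* and exons 7 to 10 of *Lipn* were in LADs of WT only (orange), all exons of *Lipo1* and *Lipf* were in LADs of both genotypes (blue), and those of *Ch25h* and *Lipa* were in neither (gray).

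*Lipf*, the gastric lipase gene (ENSMUSG00000024768.5, chr19:34035677-34051300, plus strand, 15.6 kb), lay wholly in LADs of both genotypes. All 10 exons and the transcription start were in the long WT LAD and also within 1 KO LAD, 53.9 kb long (chr19:34021545-34075453). This KO LAD was bounded by a PI DR of 41.1 kb without a gene on the upstream side (chr19:33980426-34021544), beyond which lay a KO LAD of 29.3 kb without a gene, and by the PI DR of *Lipk* downstream, so the gene lay between 2 stretches that were LAD in WT alone. Of the 100 chromosome 19 genes that lay wholly in a WT LAD, 33 (33%) also lay wholly in KO LADs, and 51 (51%) touched no KO LAD. Over all chromosomes the shares were 79.4% and 6.96% of 4423 such genes. The median share of the span kept in KO LADs was 0% for the 100 genes of chromosome 19 and 100% over all chromosomes. *Lipf*, *Lipo1*, *Lipk* and *Lipm*, which are among the 100, kept 100%, 80.3%, 73% and 64.7%.

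*Lipk*, an epidermal lipase gene (ENSMUSG00000024771.5, chr19:34082780-34122287, plus strand, 39.5 kb), lay wholly in the long WT LAD and for 73% of its span in a KO LAD of 41.3 kb (chr19:34093458-34134739). A PI DR of 18 kb (chr19:34075454-34093457) covered the first 10.7 kb of the gene, or 27% of its span. The transcription start, exon 1 (34082780 to 34082872) and exon 2 (34093169 to 34093281) were in this DR, and exons 3 to 10 were in LADs of both genotypes. Exon 2 ended nearer to the KO LAD than the mean GATC spacing of the locus, 368 bp. Its state thus rests on the placing of that 1 border. The nearest KO LAD to the start was 7.33 kb away, on the upstream side. The *Lipk* DR held 31 GATC sites.

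*Lipn*, another epidermal lipase gene (ENSMUSG00000024770.7, chr19:34141848-34159408, plus strand, 17.6 kb), was the only lipase of the cluster that a LAD border crossed in WT. A WT LAD of 53.6 kb (chr19:34152906-34206550) began in intron 6, so that 37% of the span and exons 7 to 10 were in it. Exons 1 to 6 and the transcription start lay in the interval between this WT LAD and the long one, and the long WT LAD ended 3.93 kb upstream of the start. No KO LAD touched *Lipn*, and the nearest was 7.11 kb upstream of it. The 37% of the span that was in a WT LAD was thus wholly in a PI DR (chr19:34152906-34183104, 30.2 kb).

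*Lipm*, the third of the epidermal lipase genes (ENSMUSG00000056078.5, chr19:34175433-34197177, plus strand, 21.7 kb), lay on the same WT LAD and the same DR as *Lipn*. The whole gene was in the WT LAD, and 64.7% of it was in a KO LAD of 14.4 kb (chr19:34183105-34197520), the only KO LAD over that WT LAD. The transcription start, exon 1 (34175433 to 34175506) and exon 2 (34175593 to 34175806) were in the DR, and the start was 7.67 kb from the KO LAD. Exons 3 to 10, beginning with exon 3 (34184047 to 34184164), were in LADs of both genotypes. The KO LAD ended 0.343 kb past the 3′ end of the gene. It held 24 GATC sites and ranked 317 of 404 by length on chromosome 19, so the call of *Lipm* exons in KO rests on a short LAD.

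*Lipk* and *Lipm* were the members whose transcription start was in a LAD of WT only. Their promoters, the 250 bases before the start, are shown for that reason, 5′ to 3′ on the strand of the gene in NCBIM37. Capitals would mark GATC, and neither sequence holds it.
Lipk, chr19:34082530-34082779: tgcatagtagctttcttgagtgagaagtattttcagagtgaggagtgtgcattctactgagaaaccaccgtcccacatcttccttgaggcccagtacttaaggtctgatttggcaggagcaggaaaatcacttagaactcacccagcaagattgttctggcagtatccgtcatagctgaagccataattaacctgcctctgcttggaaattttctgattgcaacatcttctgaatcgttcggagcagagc
Lipm, chr19:34175183-34175432: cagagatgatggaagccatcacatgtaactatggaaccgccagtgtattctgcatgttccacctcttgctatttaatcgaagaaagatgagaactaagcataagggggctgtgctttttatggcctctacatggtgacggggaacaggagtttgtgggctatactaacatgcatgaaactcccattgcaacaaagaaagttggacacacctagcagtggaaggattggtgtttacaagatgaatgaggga
*Lipf* and *Lipo1* were the members whose start was in LADs of both genotypes. The promoter of *Lipo1* holds 0 GATC and is not shown. That of *Lipf*, the neighbor of *Lipk*, is set beside those of *Lipk* and *Lipm* and holds 1 GATC.
Lipf, chr19:34035427-34035676: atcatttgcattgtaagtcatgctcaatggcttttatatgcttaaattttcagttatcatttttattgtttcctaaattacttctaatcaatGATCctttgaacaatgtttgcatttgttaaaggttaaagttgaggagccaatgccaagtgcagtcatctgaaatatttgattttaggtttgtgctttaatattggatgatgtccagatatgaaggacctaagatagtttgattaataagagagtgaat
GATC, which reads the same on both strands, was in the promoter of 1 of the 7 members, against 39.6% of the promoters of all 22367 genes. The fragment between neighboring GATC sites that holds the start was 425 bp long in *Lipf*, 617 bp in *Lipm*, 725 bp in *Lipn*, 836 bp in *Ch25h*, 987 bp in *Lipo1*, 1353 bp in *Lipk* and 2310 bp in *Lipa*. GC content of the promoters was 30.4% in *Lipf*, 45.2% in *Lipk*, 44.4% in *Lipm*, 46% in *Lipn*, 42.4% in *Lipo1*, 50.8% in *Ch25h* and 58% in *Lipa*. The promoters in no LAD of either genotype were thus higher in GC than those of the other members.

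*Lipo1* (ENSMUSG00000024766.7, chr19:33592230-33836441, minus strand, 244 kb) was PI through the smallest share of its span among the 4. The stretch within the gene, of 10.7 kb, was no shorter than those within the others. As a DR it was the shortest behind a PI member, against 18 kb for *Lipk* and 30.2 kb for *Lipn* and *Lipm*. All of its span was in the long WT LAD, 80.3% was in 6 KO LADs (31.6, 119, 24.2, 15.4, 14 and 78.3 kb long, in order of position), and 4.38% was in a PI DR of 10.7 kb (chr19:33761017-33771707) that holds 0 exonic bases. Its span was crossed by 10 KO borders and no WT border, and 4 further gaps in it, of 9.85, 9.06, 9.87 and 8.67 kb, fell just short of the 10 kb that makes a DR. All 11 exons and the transcription start were in LADs of both genotypes. The KO LAD over its exons (chr19:33608456-33727745, 119 kb) is the fourth longest of the 404 on chromosome 19.

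The class of *Lipo1* depended on its gene record. The record joins several transcript models, and the model with the most exonic bases runs over only 35.1 kb (chr19:33629650-33664798), lies wholly in LADs of both genotypes and is PP by itself. The other full-length model covers 207 kb and is PI, because it begins at 33836441, 2 bases beyond the end of *Lipo2* at 33836439, on the far side of the DR. The gene that mm9 calls *Lipo1* is *Lipo3* in a later RefSeq annotation (GRCm38.p6, from which only names were taken), and the gene later called *Lipo1* is *Gm5097* of mm9. *Gm5097* (chr19:33850011-33861952, 11.9 kb) lay wholly in LADs of both genotypes and was PP. By either of these readings, both chosen after the data were seen, the cluster has 3 PI and 2 PP members.

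*Lipa*, the lysosomal acid lipase gene and the member with the best known role in hepatocytes (ENSMUSG00000024781.8, chr19:34566808-34601964, minus strand, 35.2 kb), was in no LAD of either genotype. All 10 exons lay outside the LADs. In WT the gene was 30.3 kb from a LAD and in KO 314 kb, and from its transcription start these distances were 65.4 and 349 kb.

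*Ch25h* (ENSMUSG00000050370.4, chr19:34548276-34549625, minus strand, 1.35 kb, 1 exon) was also in no LAD of either genotype. It lay 11.7 kb from a WT LAD of 116 kb (chr19:34420594-34536537) and 295 kb from the nearest KO LAD. That WT LAD fills most of the interval between *Fas*, the death receptor gene, and *Ch25h*, and holds no protein-coding gene. It had no KO LAD over it and was itself a PI DR, the longest of the locus, with 303 GATC sites. By length it ranked 16 of the 370 PI DRs of chromosome 19 and 21 of the 7787 of the genome. The longest released stretch of the locus thus touched no member, and in WT it was the nearest LAD to both *Ch25h* and *Lipa*, which were II in either case. Of the 529 II genes of chromosome 19, 143 (27%) were farther from a LAD in KO than in WT, and the median distance was 571 kb in WT and 288 kb in KO.

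The other protein-coding genes that overlap the locus number 8. *Gm5519*, a predicted gene of 2.16 kb, was PI with 75.5% of its span in a DR of 53.2 kb. *Ankrd22*, an ankyrin repeat gene that overlaps the 3′ end of *Lipm* on the other strand, was AMB. WT LADs took up 45.4% of its span and KO LADs 13.1%. It carried a WT LAD of 10.3 kb with no KO LAD over it and the only KO-only LAD of the locus, of 17.6 kb (chr19:34235308-34252908). The PI part of the AMB call rests on that WT LAD, which ranked 241 of 242 by length on chromosome 19. The shortest LAD in the lists has 10002 bases, so no shorter stretch is listed in either genotype. The lipase-like genes *Lipo2*, *Lipo4* and *Gm5097* were PP. *Lipo2* had 72.9% of its span in KO LADs, without a gap long enough for a DR. *Stambpl1*, a deubiquitinase gene, *Acta2*, the smooth muscle actin gene, and *Fas* were II. Just outside, *Gm8975*, a lipase-like pseudogene in the later annotation, lay wholly in a PI DR, and *Ifit2*, an interferon-induced gene on the far side of *Lipa*, was II. The PI calls were thus scattered among PP calls as far as *Ankrd22*, and all genes beyond it were II.

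A list of 25 other genes for lipases, sterol esterification and oxysterol metabolism was placed in the same way. Of these, 21 were II and 1 each was PI, IP, AMB and PP. The II genes were *Lipc*, *Lipe*, *Lipg*, *Liph*, *Lpl*, *Pnliprp1*, *Pnliprp2*, *Pnpla2*, *Pnpla3*, *Mgll*, *Cel*, *Lcat*, *Soat1*, *Soat2*, *Npc1*, *Npc2*, *Cyp7a1*, *Cyp27a1*, *Cyp46a1*, *Insig1* and *Gpihbp1*. The PI gene was *Pnlip*, the pancreatic lipase gene, which is on chromosome 19 too, with 2.41% of its 11.4 kb in a PI DR. Its chromosome 19 relatives *Pnliprp1* and *Pnliprp2* were II and lay 33.4 and 64.3 kb from a WT LAD and 177 and 144 kb from a KO LAD. The IP gene was *Nceh1*, a neutral cholesteryl ester hydrolase gene on chromosome 3, with 12.4% of its span in KO-only DRs and no WT LAD on it. *Cyp7b1*, which encodes an oxysterol hydroxylase, was AMB, and 85.5% of it was covered in WT against 82.9% in KO. *Lipi* lay wholly in LADs of both genotypes. The shares of PI and IP genes in the list, 4% each, stand beside 5.43% and 17.1% of all genes.

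**Figure D5:**
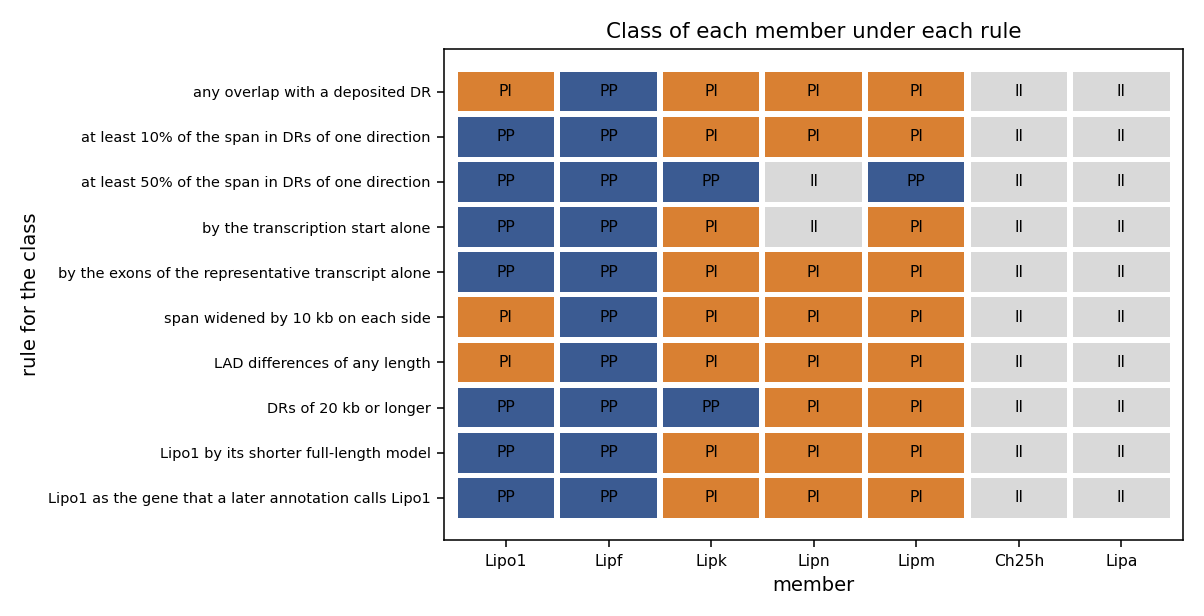
Class of each member (columns) under each rule (rows), from the overlap of at least 1 base at the top to the alternatives below it. No row joins LADs across gaps. *Lipf* was PP and *Ch25h* and *Lipa* were II in every row, *Lipk*, *Lipm* and *Lipn* were PI in most rows, and *Lipo1* was PI only by any overlap, with its span widened by 10 kb, or with LAD differences of any length.

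The classes were counted again under other rules. *Lipf*, *Ch25h* and *Lipa* had the same class under each rule shown in the plot of classes by rule. *Lipk* and *Lipm* stayed PI by the transcription start alone and by exons alone, and *Lipn* was II by its start. With DRs of at least 20 kb *Lipk* was PP, since its DR is 18 kb long, and when LADs were merged over gaps no longer than 20 kb, 100% of *Lipk* was in KO LADs, so its WT-only 5′ end was no longer there. When at least 50% of the span was required in DRs, no member was PI, because the highest share was 37% in *Lipn*. The plot has no row for joined LADs. With LADs joined across gaps of up to 50 kb, *Lipo1*, *Lipk*, *Lipn* and *Lipm* lay 100% in LADs of both genotypes. None of them then had a WT-only base, so no PI call would remain. A LAD call is an average over the pooled cells, so a stretch released in a part of the cells and one held more loosely in all of them cannot be told apart.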

How the data were processed

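Lamina contact was profiled by DamID in primary mouse hepatocytes, WT and *Tm7sf2*-KO, with 1 LaminB1-Dam and 1 Dam library per genotype. The authors mapped the reads to mm9 (BWA and limma are named in the submitters' processing notes, without versions), took the log2 ratio of LaminB1-Dam to Dam per *DpnI* fragment, segmented it into LADs with DNAcopy and subtracted the lists to obtain DRs. The 2 LAD lists and 2 DR lists deposited hold interval positions only, with no signal or depth. On chromosome 19 the deposited DRs were identical to the subtraction with a 10 kb minimum.

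Spans and exons were taken from GENCODE vM1 on NCBIM37, and positions are 1-based. Python 3.11.15 with numpy 2.4.6 gave the overlaps, pysam 0.24.0 the sequences, biopython 1.88 the alignments and matplotlib 3.10.9 the figures. The 6 interval steps, tested on simulated data with 200 draws each, gave 0 errors. The text names all members, each protein-coding gene overlapping the locus, the nearest one on each side, each LAD and DR of the locus, and the lipid list, with values where a gene of it was not II or is a *Pnlip* relative. The members and lists were chosen with earlier results of these data known, and 2 alternatives on *Lipo1* were added after the data were seen. Alternatives changed the overlap asked of a gene, the minimum length of LADs or DRs, or joined LADs across gaps. A value was counted as unchanged within a factor of 1.5. Samples were grouped by their labels, and no test was made with 1 library per group.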

Additional observations from a re-analysis of the deposited data

How the results depend on the processing

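Of 119 values recomputed under alternatives, 99 stayed within a factor of 1.5 and 20 moved. The 99 include values of 0 that stayed 0, such as the IP and AMB counts and the LAD shares of *Ch25h* and *Lipa*. The tally is therefore no measure of how stable the results are. Requiring at least 10% of the span in DRs gave 2 PP members, as did exons alone, and at least 50% gave 0 PI and 4 PP members. The transcription start alone gave 2 PI and 2 PP members, and DRs of at least 20 kb gave 2 PI and 3 PP members. With *Lipo1* taken by its shorter full-length model, or as the gene that later carries the name, both added after the data were seen, there were 2 PP members. When LADs were merged over gaps no longer than 50 kb, 22.5% of the WT LAD bases of the locus lay outside KO LADs, with 0 exons that were LAD in WT alone and 11 in no LAD, since *Lipn* and *Lipm* then lay wholly in LADs of both genotypes (100% in KO). Merging over 20 kb left 11 exons in neither, with *Lipn* at 100% in WT. Keeping only LADs of at least 20 kb gave 16 exons in LADs of WT only, because the KO LAD on *Lipm* is shorter than that and its share in KO became 0%. The other causes were not tested. The number of members called II and the shares of the locus in LADs stayed within the factor under each alternative run for them, in some cases barely. II members rose from 2 to 3 when at least 50% of the span was required and by the transcription start alone. With LADs joined across gaps of up to 50 kb, the KO share of the locus was 60.2% against 41%, and the WT share 74.3% against 71.9%. No paired analysis was possible because the result comes from no test and each group holds 1 library, and for the same reason no replicate could be left out. The GATC spacing, on average 1 site per 368 bp of the locus, is only the finest step at which a border can be placed. The error of a border from segmentation and depth is unknown from the lists and may be larger.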
